A study of Mus musculus with 24 samples.

Results

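The subject is mouse skin 72 h after a single dose of 30 Gy of gamma rays to the hind leg, set against skin of mice that were not irradiated. Its members were chosen by tissue and time: 6 of the 24 arrays of the study, 3 of skin at 72 h and 3 of control skin. Each group held 1 array of each of 3 inbred strains, A/J, then C57BL/6J and C3H/HeMs, and the mice were females aged 12 to 13 weeks. Every array carried RNA pooled from 3 mice of 1 strain, so there was 1 pool per strain and time, and each 72 h pool was paired with the control pool of its own strain. Skin RNA was labelled with Cy5 and hybridised beside a common reference labelled with Cy3, a mixture of RNA from 10 organs that is the same for all groups. The other arrays of skin were taken 1 h and 12 h after the same dose, 3 at each time, and the remaining 12 were of lung after 10 Gy to the thorax, with controls. A level below is the log2 ratio of skin over that reference, and a change is the level at 72 h minus the control level of the same strain; series of 3 values run in the order A/J, C57BL/6J, C3H/HeMs. Because the 3 replicates of a group are 3 strains, an error or p-value measures the spread of the response between pools of different strains, with pooling already averaging over mice. That spread was estimated from all arrays of a fit, the other times included, and not from the 6 compared alone.

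Ionising radiation breaks DNA, and the transcription factor p53 then switches on genes that stop the cell cycle, repair DNA or kill the cell. Skin is renewed by dividing keratinocytes in the basal epidermis and, while a hair grows, by rapidly dividing cells of the follicle matrix, which build the shaft and its sheaths. Keratinocytes leaving the basal layer make a fixed set of proteins, among them Krt10 and loricrin, and form the cornified barrier. Genes of mitosis are expressed in cycling cells, and many share short promoter elements through which they are repressed outside the cell cycle.

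The content of the pools was read from marker genes before any change. All 11 measured members of the epidermal differentiation list and all 11 of the basal keratinocyte list were above the reference on each of the 12 skin arrays, with list means of 3.48 to 4.58 and of 3.13 to 4.05. The mean of 7 lung epithelium markers lay between -3.55 and -2.65, so keratinocyte markers were high and lung markers low, as the tissue label has it. Muscle and hair content differed between pools. Over 27 skeletal muscle genes the mean level was -1.54, -0.73 and 0.50 in the control pools and -1.31, -0.99 and -1.44 at 72 h. The C3H/HeMs control thus held the most muscle RNA, with 17 of 27 members above the reference against 4 in its 72 h pool, while the A/J pair differed by the least. Acta1, the skeletal muscle actin, was at -1.59, -0.37 and 0.81 in the controls and -2.16, -0.40 and -1.24 at 72 h.

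Over 11 genes of the hair shaft and follicle the mean was 3.21, 3.78 and 1.77 in the controls and 1.16, 1.96 and 2.34 at 72 h, within a range of 1.16 to 3.78 over all 12 skin pools. This mean was lower at 72 h than in the control for A/J and C57BL/6J and higher for C3H/HeMs, whereas the median change of the 11 genes was below 0 in C3H/HeMs too (-0.50). The shaft keratin Krt33b was at 5.80, 6.77 and 0.29 in the controls and -0.59, 1.95 and 3.74 at 72 h. The controls alone ran from 1.77 to 3.78, and the A/J pools at 1 h and 12 h stood at 1.53 and 3.33. In bulk skin, fewer cells of a type and less RNA per cell cannot be told apart. Fits with the muscle mean or the hair mean of each pool as a covariate are therefore quoted where they move a value.

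**Figure D1:**
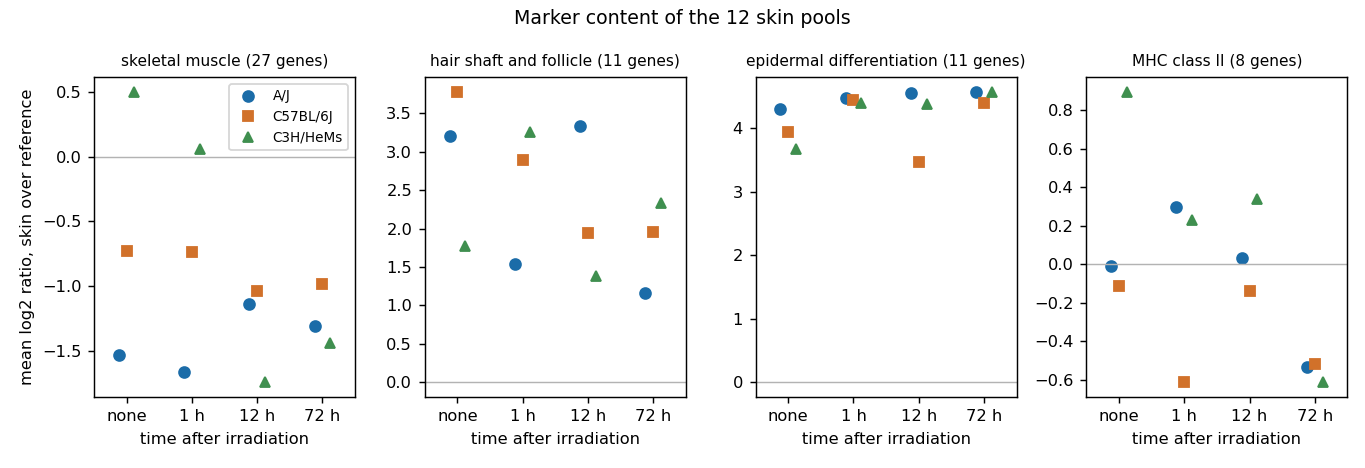
Mean log2 ratio of skin over the reference for 4 marker lists (vertical axes) in each of the 12 skin pools, by time after irradiation (none, 1 h, 12 h, 72 h) and strain (symbols); each point is 1 array. Muscle content is highest in the C3H/HeMs control (0.50), hair content runs from 1.16 to 3.78 with no common order of the times, the epidermal list is at 3.48 or above, and the 3 MHC class II means at 72 h lie between -0.61 and -0.52.

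Some arrays also carried a gradient that followed the place of a probe in the numbering. With probe numbers laid out in rows of a fixed length, which was inferred from the values, the median change was taken in blocks of 12 rows by 14 columns. In A/J it ran from -0.17 to 0.84, in C57BL/6J from -0.75 to 0.46, and in C3H/HeMs from -0.84 to 0.81. One corner stood apart in the A/J pool at 72 h. There, 11 probes without a gene symbol that start the rows had a median level of 2.88 against quartiles of -1.28 and -1.13 in the earlier rows of that array. Of the 114 probes of that corner, 48.2% were at least 2-fold higher in the A/J pair, 18.4% in the C57BL/6J pair and 42.1% in the C3H/HeMs pair, against 2.01%, 3.48% and 13.0% of all probes. Its part in any gene's value was tested by subtracting the local median from each array, and values from that fit are given where a call, a sign or a count changed.

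**Figure D2:**
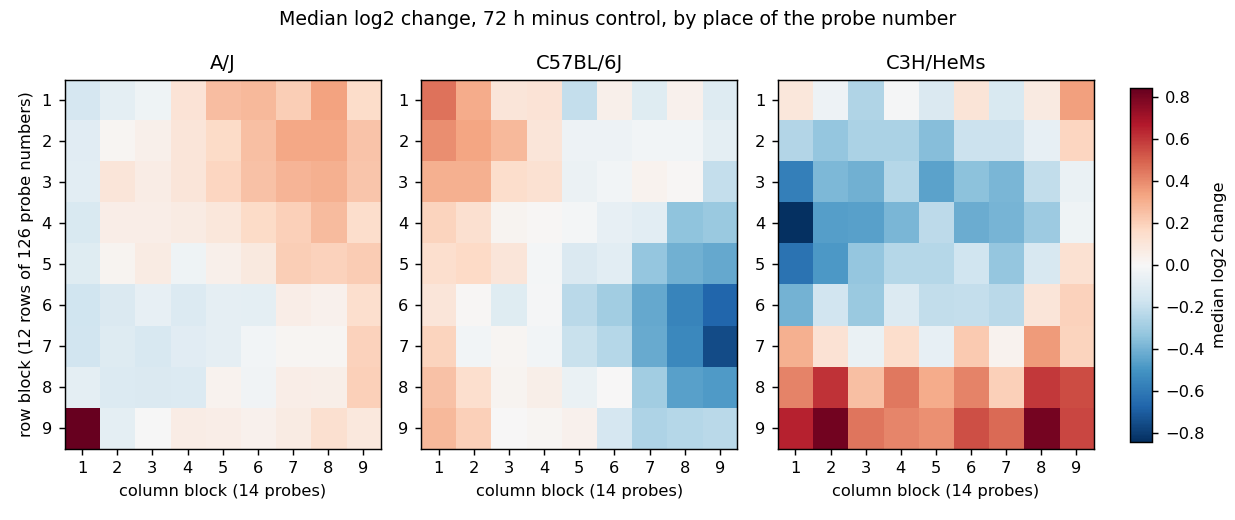
Median log2 change, 72 h minus control of the same strain, in 81 blocks of probe numbers (12 rows by 14 columns), 1 panel per strain; red is higher and blue lower at 72 h. The lower left block of A/J reaches 0.84, and the A/J, C57BL/6J and C3H/HeMs panels each show a gradient across the layout.

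Against this background no feature passed in the fit of the 12 skin arrays. Of 8750 features, 0 had an adjusted p under 0.05 in limma with strain as a block (0.0%), and the smallest was 0.488. At an unadjusted p under 0.05 there were 649 features (7.42%), 346 higher and 303 lower. When the 12 lung arrays were added to estimate the spread, limma passed 16 features (0.183%), of which 14 rose (0.16%) and 2 fell (0.0229%), and 12 of them had a gene symbol. That count rested on single pools. Leaving out the A/J pool at 72 h raised it to 78, leaving out the C57BL/6J pool at 72 h gave 22, and leaving out the C57BL/6J control left 0, with a smallest adjusted p of 0.0528. Without the A/J control it was 8, without the C3H/HeMs control 7 and without the C3H/HeMs pool at 72 h 5. The verbs rose and fell are used below for these 12 genes alone, and all other values are levels and differences that did not pass in either fit. With the position trend removed as well, the 24-array fit passed 28 features, among them Gsto1 (limma, adjusted p = 0.0186), Il18 (0.0247) and Polk (0.0398).

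Exoc4, a subunit of the exocyst complex that tethers secretory vesicles to the plasma membrane, had the smallest adjusted p of the named genes in the 12-array fit. Its level was 0.56, 0.67 and 1.31 in the controls and 2.75, 2.07 and 2.42 at 72 h, so every irradiated pool lay above every control. The difference was 1.56 ± 0.26 (limma SE, fit of 12 skin arrays), or 2.96-fold (limma, adjusted p = 0.55). In the 24-array fit it rose with an adjusted p of 0.007, and in 6 refits that each left out 1 of the compared pools it passed in 5, with adjusted p from 0.00778 to 0.0528. The change was already 1.75 at 12 h and was -0.03 at 1 h. In lung at 72 h it was 1.53 (24-array fit, limma, adjusted p = 0.00606). Trim8, a ubiquitin ligase of the tripartite motif family, was at 2.85, 2.39 and 2.71 in the controls and 3.79, 3.46 and 3.95 at 72 h. Its groups did not overlap and it rose by 1.08 ± 0.15 (SE, 24-array fit, limma, adjusted p = 0.00798), or 2.12-fold. It too passed in 5 of the 6 refits, with adjusted p from 0.015 to 0.0626, and both genes failed the threshold once the C57BL/6J control was left out.

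Dcxr, the dicarbonyl and L-xylulose reductase, was at -1.17, -0.85 and -0.19 in control skin and 0.76, 0.55 and 0.50 at 72 h. All 3 irradiated pools were above all 3 controls, and it rose by 1.34 ± 0.21 (SE, 24-array fit, limma, adjusted p = 0.0193, and 0.00404 to 0.0965 in the 6 refits, of which it passed 3). Its change was larger at 12 h, 2.24. Ctsf, the lysosomal protease cathepsin F, was at 0.67, 0.99 and 0.54 in the controls and 1.59, 1.60 and 2.04 at 72 h, again without overlap. It rose by 1.01 ± 0.18 (SE, 24-array fit, limma, adjusted p = 0.0401, 0.0396 to 0.232 in the refits), and its change at 12 h was 1.18. With the position trend removed it was 0.83 and no longer passed.

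Another 4 named genes rose in the 24-array fit. Ptp4a3, a protein tyrosine phosphatase, had strain changes of 2.29, 1.03 and 0.85, and Glrx, the redox enzyme glutaredoxin, of 0.77, 0.78 and 1.39. Rps6ka6, a ribosomal S6 kinase, changed by 0.51, 0.95 and 1.31, and Septin8, a filament-forming GTPase, by 0.71, 0.72 and 0.94. None of the 4 overlapped between groups. Limma gave them adjusted p of 0.0288, 0.0373, 0.0497 and 0.0288 in the 24-array fit; over the 6 refits Ptp4a3 passed in 3 and the others in 1 each, with adjusted p up to 0.244. These 4 genes were named after their values were seen.

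Eda encodes ectodysplasin A, a ligand of the TNF family that is needed for hair follicles to form. Its level was 0.67, -0.17 and -0.28 in the controls and 3.26, 0.76 and 1.5 at 72 h. Every irradiated pool was above every control, with the A/J pool furthest. It rose by 1.77 ± 0.29 (SE, 24-array fit, limma, adjusted p = 0.0193, 0.0071 to 0.11 in the 6 refits, of which it passed 2), or 3.4-fold. With the position trend removed it rose by 1.5 (24-array fit, limma, adjusted p = 0.0497). Its probe lay near the corner that stood apart in the A/J pool at 72 h, but outside it. Unlike Exoc4, Dcxr and Ctsf, Eda was near its control level at 12 h, with a change of -0.25. At 1 h its change was 0.16. The difference between 72 h and 12 h was 2.02 ± 0.35 (limma, adjusted p = 0.392). Crabp1, a cytoplasmic retinoic acid binding protein, also stood apart from its controls. It was at 1.30, 0.99 and 1.49 in the controls and 2.41, 3.48 and 4.09 at 72 h, a difference of 2.07 ± 0.41 or 4.19-fold (limma, adjusted p = 0.566). Its change was 0.06 at 1 h and 0.88 at 12 h.

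Crym, the thyroid hormone binding protein mu-crystallin, which also acts as a ketimine reductase, was the lower of the 2 features that fell. Its level was -0.79, 0.40 and 0.15 in the controls and -2.81, -1.90 and -1.94 at 72 h, so the groups were far apart. It fell by 2.14 on the log2 scale, 4.41-fold, with an SE of 0.35 in the 24-array fit (limma, adjusted p = 0.0193, 0.0349 to 0.11 in the refits) and changes of -2.02, -2.31 and -2.09 in the 3 strains. The change was -1.48 at 1 h and -0.88 at 12 h. With the hair mean as a covariate it was -1.67, though that mean contains Crym, and with the muscle mean -1.77. Oat, the mitochondrial ornithine aminotransferase, fell by 0.94 ± 0.17 (SE, 24-array fit, limma, adjusted p = 0.0339, 0.0165 to 0.185 in the refits), from 0.65, 0.21 and 1.36 to -0.15, -0.36 and -0.10. Crym passed in 3 and Oat in 2 of the 6 refits. With the position trend removed Oat was at -0.75 and no longer passed (24-array fit, limma, adjusted p = 0.0606), whereas Crym passed at -2.20 (adjusted p = 0.0267).

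**Figure D3:**
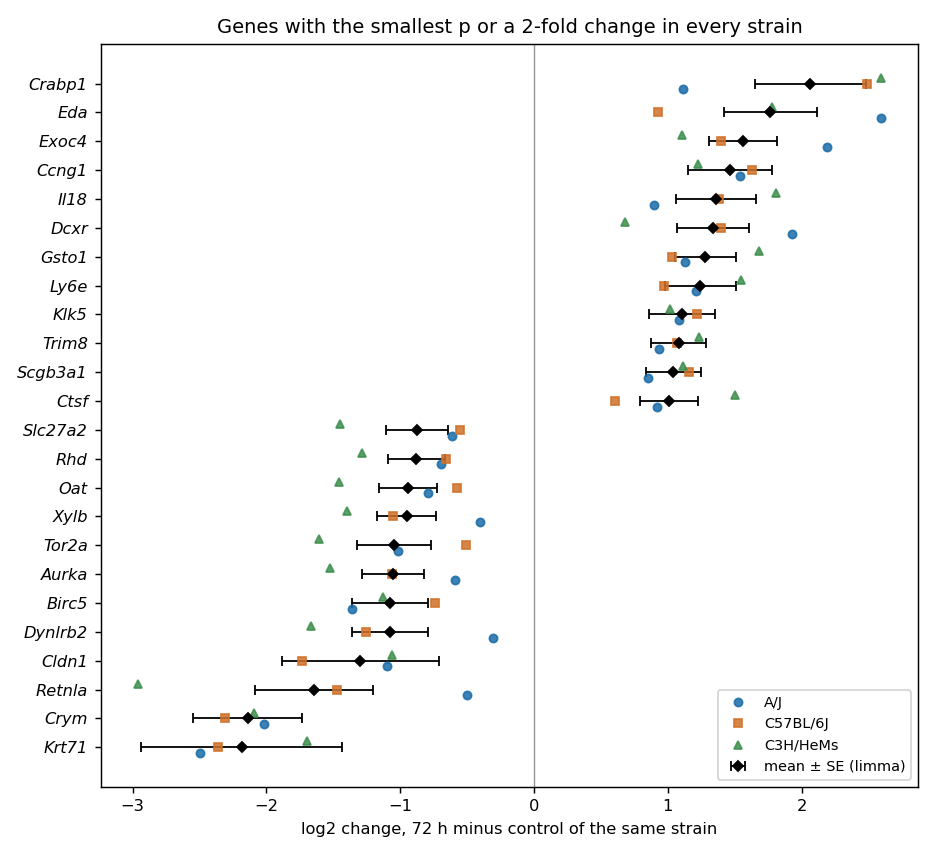
Log2 change at 72 h against the control of the same strain (horizontal axis) for 24 genes (vertical axis) with the smallest p or with a 2-fold change in every strain; coloured symbols are the 3 strains, black diamonds and bars the mean and SE from limma. For Trim8, Klk5 and Crym the 3 strains lie close together, whereas Retnla runs from -2.96 to -0.50.

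A 2-fold change in all 3 strains was found for 16 features higher (0.183% of 8750) and 7 lower (0.08%). Of the 16, 10 had no gene symbol, and 10 lay in the corner described above, 9 without a symbol and Nxph3, a neurexophilin. Several of the 9 start a row. The 40 probes that start rows had medians of 0.139, -2.244 and -2.193 in the controls and -1.135, -0.496 and -0.187 at 72 h. In C57BL/6J and C3H/HeMs such probes were thus higher at 72 h in the earlier rows too, not in the corner alone. Whether they count as separate features was not tested. Nxph3 was at 0.21, -1.12 and -1.56 in the controls and 3.50, 0.04 and -0.45 at 72 h, and its change of 1.86 became 0.96 with the position trend removed. The other named genes of the 16 were Exoc4, Ccng1, Crabp1, Gsto1 and Klk5. With the trend removed 7 features were higher in this sense, and Nxph3 and Klk5 (0.946 in A/J) were not among them. Gsto1, an omega-class glutathione transferase, was at 0.37, 0.29 and 0.15 in the controls and 1.5, 1.32 and 1.83 at 72 h, a difference of 1.28 ± 0.23 or 2.43-fold (limma, adjusted p = 0.566). Klk5, a serine protease that cleaves the junctions of the cornified layer during shedding, was at 2.38, 2.05 and 2.22 against 3.46, 3.27 and 3.24, or 2.15-fold (1.11 ± 0.25, limma, adjusted p = 0.566). Klk5 had a change of 0.52 at 1 h and was at its control level at 12 h, with a change of -0.05. Both genes kept the groups apart.

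Further genes were higher at 72 h by a like amount. Scgb3a1, a secretoglobin, was at 1.72, 1.16 and 1.70 in the controls and 2.58, 2.32 and 2.81 at 72 h, 1.04 ± 0.20 (limma, adjusted p = 0.566). Ly6e, an interferon-inducible surface protein, had changes of 1.21, 0.97 and 1.55, but its groups overlapped because the C3H/HeMs control was at 0.15 and the C57BL/6J pool at 72 h at 0.09. Il18, a cytokine of the interleukin-1 family that keratinocytes make, was at 2.22, 1.85 and 1.81 in the controls and 3.11, 3.23 and 3.62 at 72 h, without overlap. The Il18 difference was 1.36 ± 0.30 or 2.57-fold (limma, adjusted p = 0.566), against -0.02 at 1 h and 0.51 at 12 h.

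The named genes 2-fold lower in every strain were Crym, Krt71, Tagln3, Cldn1, Mki67 and Selenbp1. With the position trend removed 5 features were lower in this sense, and 3 of these genes no longer were, Cldn1 (-0.81) and Mki67 (-0.62) in C3H/HeMs and Selenbp1 (-0.93) in A/J. Krt71, a keratin of the inner root sheath of the hair, was at 4.02, 5.30 and 2.84 in the controls and 1.52, 2.94 and 1.14 at 72 h. Each strain was lower, but the groups overlapped, since the C57BL/6J pool at 72 h was above the C3H/HeMs control. The difference was -2.18 ± 0.75, 4.54-fold lower (limma, adjusted p = 0.662), and -1.18 with the hair mean, which contains Krt71, as a covariate. Cldn1, the tight junction protein claudin 1, was at 4.66, 5.53 and 4.46 in the controls and 3.56, 3.79 and 3.40 at 72 h. Its groups did not overlap, yet the difference of -1.30 ± 0.58 also shrank with the hair covariate, to -0.52. Tagln3, an actin binding protein of the transgelin family, had changes of -1.49, -2.57 and -1.12. Selenbp1, the selenium binding protein and methanethiol oxidase, went from -0.97, -0.93 and -1.39 to -2.06, -2.16 and -2.50.

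Other genes with small p were lower in the 3 strains by unequal amounts. Retnla, a resistin-like protein of alternatively activated macrophages, was at 2.94, 3.36 and 2.94 in the controls and 2.45, 1.89 and -0.03 at 72 h, 3.12-fold lower on average (-1.64 ± 0.44, limma, adjusted p = 0.644). The C3H/HeMs pool was by far the lowest. Tor2a, of the torsin family of ATPases, went from 0.65, 0.10 and 1.51 to -0.36, -0.41 and -0.10, and Dynlrb2, a dynein light chain, from -2.71, -1.99 and -2.09 to -3.02, -3.24 and -3.75. Xylb (xylulokinase), Rhd (a Rhesus family membrane protein) and Slc27a2 (a fatty acid transporter) were at changes of -0.95, -0.88 and -0.87, at levels below the reference in every control and 72 h pool. Slc27a2 was at the lower limit of the deposited values on 3 skin arrays.

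The p53 target list lay above control in each strain. It held 46 genes, of which 19 were measured. Their median change was 0.62 (0.55, 0.69 and 0.58 in the strains) against -0.01 over all 8750 features, and 11 of 19 were higher in every strain, against 14.6% of all features. For 9 of the 19 (47.4%) every irradiated pool was above every control, against 4.21% of all features, and for 0 the reverse, against 5.93%. Ccng1 was the 1 member that passed, in the 24-array fit alone. The list is an established one, but its direction was already known from these arrays, so the count is not independent evidence. All list members, here and below, have a gene symbol. Of the 5908 features with a symbol, 12.0% were higher and 18.9% lower in every strain. Fully above control were 3.74% of them and fully below 7.57%, with a median change of -0.08. Shares of all features are thus a low measure for members that are lower.

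Promoter windows are shown for Ccng1 and Polk, which, after Ei24, had the largest mean changes among members whose window holds a p53 half-site; for Polk it is 1 of 2 windows. Each runs from 250 bases before to 50 after the transcript start in RefSeq (GRCm38.p6), 5′ to 3′ on the gene's strand, the minus strand for both; capitals mark the half-site. The Ccng1 window is chr11:40755237-40755536 and the Polk window chr13:96519138-96519437.
Ccng1: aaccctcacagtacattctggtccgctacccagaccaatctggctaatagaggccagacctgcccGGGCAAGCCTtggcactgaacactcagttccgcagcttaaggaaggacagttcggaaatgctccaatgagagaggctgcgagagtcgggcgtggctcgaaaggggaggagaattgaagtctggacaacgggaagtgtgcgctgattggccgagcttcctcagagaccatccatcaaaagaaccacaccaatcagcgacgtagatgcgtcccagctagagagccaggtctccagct
Polk: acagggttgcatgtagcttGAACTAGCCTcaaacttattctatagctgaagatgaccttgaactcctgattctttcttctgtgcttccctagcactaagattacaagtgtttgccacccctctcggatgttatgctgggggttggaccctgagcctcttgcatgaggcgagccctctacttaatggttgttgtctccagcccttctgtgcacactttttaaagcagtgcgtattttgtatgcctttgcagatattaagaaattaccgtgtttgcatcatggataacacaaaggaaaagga
The half-site was searched by its degenerate consensus on both strands, and it was found in 8 of 20 windows of the list, which cover 15 of the 19 measured genes, or 40.0%, against 8.36% of all 32851 mouse windows. A full site of adjoining half-sites was in 0 windows of the list and in 3 of all windows. A match describes these letters and does not show that p53 binds there.

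Ccng1, cyclin G1, a classical p53 target, was at -0.37, -0.34 and 0.70 in the controls and 1.17, 1.29 and 1.93 at 72 h, with no overlap. The difference was 1.47 ± 0.31, 2.76-fold (limma, adjusted p = 0.566), and it rose in the 24-array fit (adjusted p = 0.0423, 0.0396 to 0.204 in 6 refits, of which it passed 1). Its change had been 0.70 at 1 h and 2.02 at 12 h, and in lung at 72 h it was 1.76 (24-array fit, limma, adjusted p = 0.0105). Cdkn1a, the p21 inhibitor of cyclin-dependent kinases, was at 2.69, 3.34 and 2.89 in the controls and 3.64, 4.31 and 3.73 at 72 h, 1.89-fold higher (0.92 ± 0.28, limma, adjusted p = 0.644). The strain changes lay between 0.84 and 0.97, and the groups did not overlap; at 1 h and 12 h the change was 0.82 and 1.5. Trp53inp1, a nuclear protein that promotes p53-dependent death, went from 1.37, 1.78 and 1.32 to 2.48, 2.63 and 2.47, or 2.06-fold (1.04 ± 0.33, limma, adjusted p = 0.662).

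Polk, a polymerase that copies past damaged bases, was at 1.07, 0.53 and 1.95 in the controls and 2.23, 2.27 and 2.75 at 72 h, 2.35-fold higher (1.23 ± 0.37, limma, adjusted p = 0.644). Pmaip1, the death gene Noxa, went from 0.20, 0.12 and 0.03 to 1.24, 1.11 and 0.72, and Gadd45a, a growth arrest gene, differed by 0.62 ± 0.26. Mdm2, which marks p53 for destruction, was at 0.81, 0.51 and 1.39 in the controls and 1.61, 1.41 and 1.56 at 72 h, so the C3H/HeMs pair differed least. Ephx1, an epoxide hydrolase, showed the same split with changes of 1.23, 1.15 and 0.09, the last of which was -0.45 with the position trend removed. Of the remaining members, Sfn, the epithelial 14-3-3 sigma, differed by -0.43 ± 0.31 and Igfbp3 had the lowest mean change, -0.66. Ei24 had the largest mean change of the list, but its strain values were 5.13, 1.00 and 0.76, it lay in the corner of the layout, and with the trend removed its mean went from 2.30 to 1.40.

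The list was above control at all times. Its median was 0.48 at 1 h, 0.97 at 12 h and 0.62 at 72 h, against the same control pools in each case. Of the named members, Ccng1, Cdkn1a, Trp53inp1 and Mdm2 had differences of 72 h minus 12 h between -0.68 and -0.55, and limma passed none of them (adjusted p = 0.737 for Ccng1 and 0.711 for Cdkn1a). Over all features 0 passed between 72 h and 12 h (0.0%), with 624 (7.13%) at an unadjusted p under 0.05. In lung at 72 h the list median was 0.45. Cdkn1a had a change of 2.54 in lung and 0.92 in skin, a difference that did not pass (limma, adjusted p = 0.36). Dose and tissue cannot be told apart in such a difference, of which 0 passed over all features (0.0%) and 1133 (12.9%) had an unadjusted p under 0.05.

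**Figure D4:**
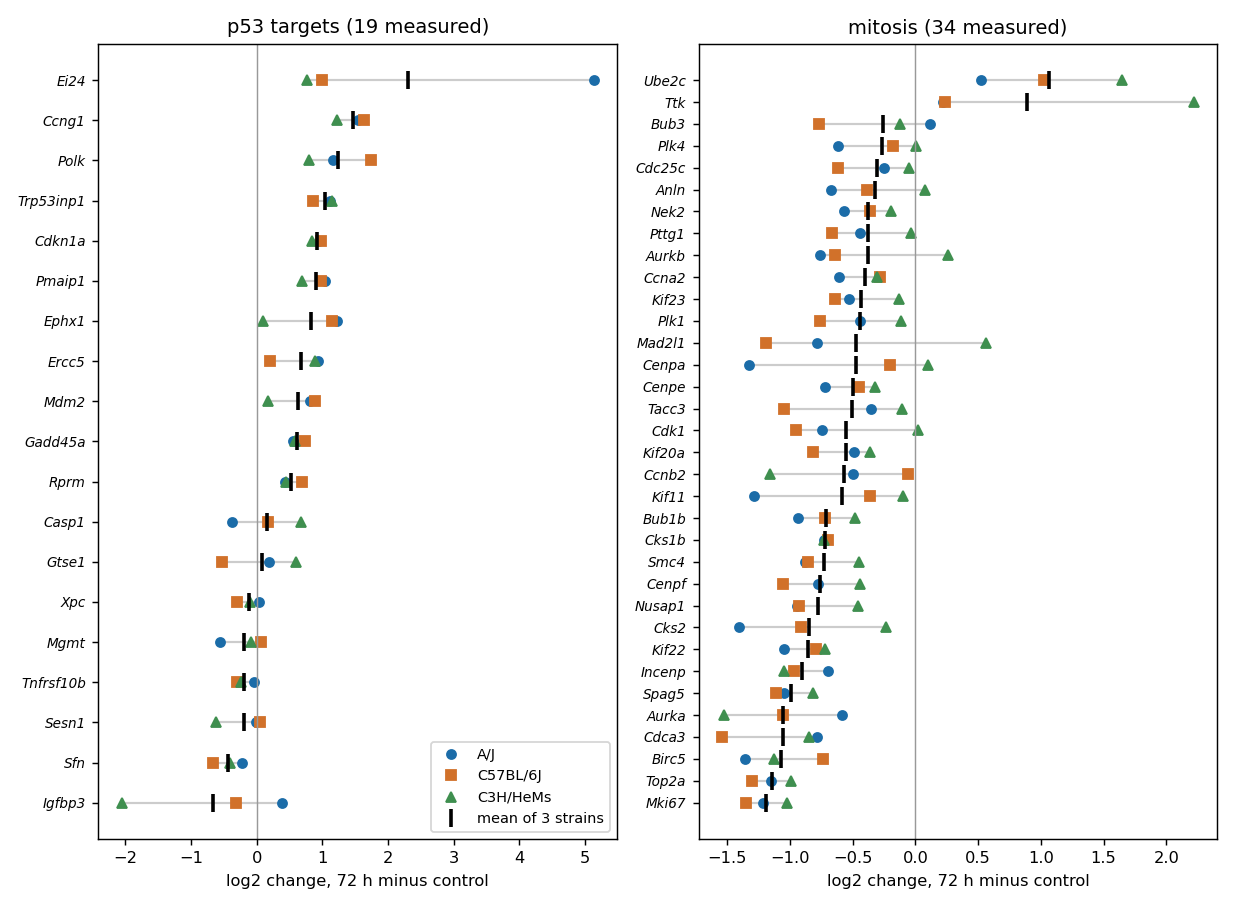
Log2 change at 72 h against control (horizontal axes) for all 19 measured p53 targets and all 34 measured mitosis genes (vertical axes); symbols are the 3 strains and black ticks their mean. Most p53 targets lie to the right of 0, with a median of 0.62, and 25 of 34 mitosis genes lie to the left of 0 in every strain, with Ube2c and Ttk on the other side.

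Genes of mitosis were below control. Of 49 genes on the list 34 were measured, with a median change of -0.55 (-0.72, -0.75 and -0.27), and 25 of the 34 were lower in every strain, against 15.4% of all features. For 15 (44.1%) every 72 h pool was below every control, against 5.93% of all features, and for 1 (2.94%) above, against 4.21%. Limma passed 0 of them at an adjusted p under 0.05 and 15 were lower at an unadjusted p under 0.05, against 3.46% of all features. Without the C3H/HeMs control, the pool with the most muscle RNA, the median was -0.86.

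The promoters of Aurka, Top2a and Mki67, 3 of the members furthest below control, are printed because they hold the elements typical of this class. The cell cycle homology region (CHR, TTTGAA or TTCGAA) and the CCAAT box (CCAAT) were searched on both strands, and capitals mark them. The windows are chr2:172370521-172370820, chr11:99024140-99024439 and chr7:135716330-135716629 in RefSeq (GRCm38.p6), from 250 bases before to 50 after the start, each on the minus strand and written 5′ to 3′.
Aurka: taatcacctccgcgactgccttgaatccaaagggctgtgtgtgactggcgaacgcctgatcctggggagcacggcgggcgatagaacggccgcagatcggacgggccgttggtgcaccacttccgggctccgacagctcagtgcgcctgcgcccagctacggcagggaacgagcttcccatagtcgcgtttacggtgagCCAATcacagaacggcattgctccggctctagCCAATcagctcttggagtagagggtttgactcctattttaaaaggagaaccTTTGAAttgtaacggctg
Top2a: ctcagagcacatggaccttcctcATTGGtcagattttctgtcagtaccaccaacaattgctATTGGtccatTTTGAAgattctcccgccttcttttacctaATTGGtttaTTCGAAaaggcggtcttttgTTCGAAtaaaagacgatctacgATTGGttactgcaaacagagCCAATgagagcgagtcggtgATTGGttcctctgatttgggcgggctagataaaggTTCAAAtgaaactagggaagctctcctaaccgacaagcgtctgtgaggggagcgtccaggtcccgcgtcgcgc
Mki67: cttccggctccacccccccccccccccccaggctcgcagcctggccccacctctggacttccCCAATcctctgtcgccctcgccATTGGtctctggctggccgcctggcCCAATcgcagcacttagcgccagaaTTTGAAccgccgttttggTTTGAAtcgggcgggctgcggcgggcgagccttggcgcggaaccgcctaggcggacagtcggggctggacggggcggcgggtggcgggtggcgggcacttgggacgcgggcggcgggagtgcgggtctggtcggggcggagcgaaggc
A CHR was found in 20 of the 29 windows of the list (69.0%), against 19.2% of all 32851 windows, and a CCAAT box in 22 of 29 (75.9%), against 37.4%. The windows cover 28 of the 34 measured genes, and the elements overlapped in 0 of them. For the DNA replication list they were in 5 and 16 of 32 windows. Neither element was found in the window of Birc5, which says only that these letters are not in it.

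Mki67 encodes the Ki-67 antigen, the standard marker of cycling cells. It was at 1.35, 1.53 and 1.04 in the controls and 0.14, 0.18 and 0.02 at 72 h, with wide separation. The difference was -1.19 ± 0.34, 2.29-fold lower (limma, adjusted p = 0.644), and it was -0.80 with the hair mean and -1.07 with the muscle mean as a covariate. At 1 h the change was -0.13 and at 12 h -1.49. Top2a, the topoisomerase that untangles chromosomes for mitosis, went from 0.41, 0.85 and 0.15 to -0.73, -0.45 and -0.83, 2.21-fold lower (-1.14 ± 0.31, limma, adjusted p = 0.644). Birc5, survivin, a subunit of the chromosomal passenger complex, went from 0.03, -0.11 and -0.25 to -1.33, -0.85 and -1.38, 2.11-fold lower (-1.07 ± 0.28, limma, adjusted p = 0.644). With the position trend removed the C3H/HeMs change of Birc5 was -0.51 in place of -1.13.

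Aurka, the kinase of the spindle poles, was at -1.43, -0.97 and -1.18 in the controls and -2.02, -2.03 and -2.70 at 72 h, 2.08-fold lower (-1.05 ± 0.23, limma, adjusted p = 0.566). It differed from Mki67 and Birc5 in its course, since its change was -1.35 already at 1 h. For these 4 genes no 72 h pool reached a control, and none of the 4 values changed sign with either covariate; Aurka was at -1.17 with the hair mean and -1.0 with the muscle mean. Smc4, a condensin subunit, was at a change of -0.73 ± 0.21. Ube2c, the ubiquitin-conjugating enzyme of the anaphase-promoting complex, went the other way in every strain, from 5.41, 3.80 and 4.41 to 5.93, 4.83 and 6.06. Its strain changes of 0.52, 1.03 and 1.65 are close to those of the epidermal genes Krt10 and Lor given below. Ttk, a spindle checkpoint kinase, was also above control, with changes of 0.22, 0.23 and 2.22.

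The mitosis median was -0.11 at 1 h, -0.85 at 12 h and -0.55 at 72 h, all against the same controls, and -0.09 in lung at 72 h. Members differed in lung, where Aurka was at -1.27 (24-array fit, limma, adjusted p = 0.0651) and Smc4 had changes of 0.19, 0.13 and 1.57. Genes of DNA replication differed less. Of 51 on the list 29 were measured, with a median of -0.37. In every strain 14 were lower (48.3%, against 15.4% of all features) and 1 higher (3.45%, against 14.6%). Fully below control were 6 (20.7%), against 5.93% of all features. Leaving out the C57BL/6J control gave a median of -0.16, and leaving out the C3H/HeMs pool at 72 h gave -0.24. Gmnn, geminin, which blocks a second round of replication, went from -0.09, 0.77 and -0.32 to -0.92, -0.96 and -1.52, a difference of -1.25 ± 0.36 (limma, adjusted p = 0.644). Uhrf1, which copies DNA methylation to the new strand, went from 0.77, 0.82 and -0.02 to -0.72, -0.36 and -0.63 (-1.09 ± 0.34, limma, adjusted p = 0.644). Mcm4, a subunit of the replicative helicase, was at -0.63 ± 0.27. Ccnd1, cyclin D1, was on the other side at 0.54 ± 0.28.

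**Figure D5:**
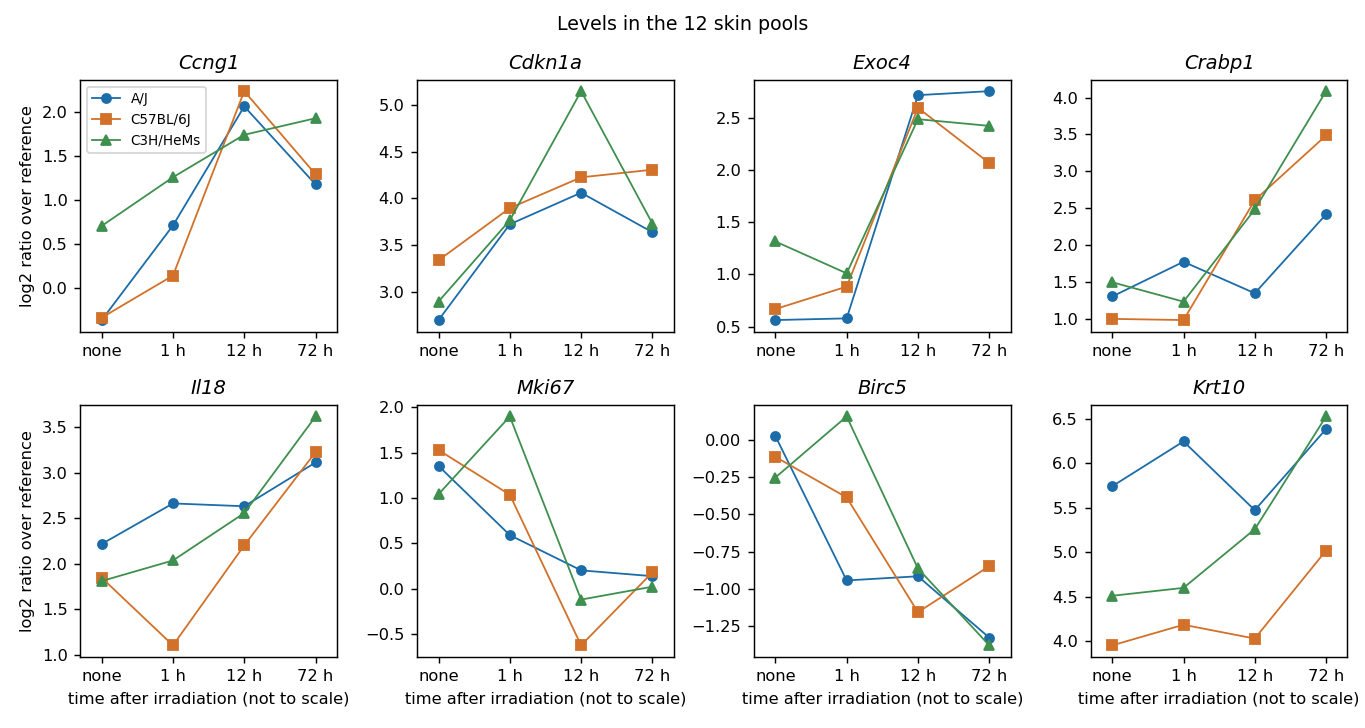
Level (log2 ratio over the reference, vertical axes) of 8 genes in the 12 skin pools by time after irradiation (horizontal axes, not to scale); each point is 1 pool of 3 mice, and lines join pools of the same strain, not the same mice. Ccng1 and Exoc4 are already high at 12 h, Crabp1, Il18 and Krt10 reach their highest level at 72 h in every strain, and Mki67 and Birc5 stay below control at 12 h and 72 h.

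Genes of epidermal differentiation were above control while hair genes were below it in a part of the pools. Of 40 differentiation genes 11 were measured, with a median of 0.53 (0.17, 0.84 and 0.77), or 0.31 without the C57BL/6J pool at 72 h. Against the same controls the list median was 0.52 at 1 h and 0.185 at 12 h, so its shift was not particular to 72 h. At 72 h 6 of the 11 were higher in every strain (54.5%, against 14.6% of all features) and 0 lower (against 15.4%). Only 2 (18.2%) were fully above control, against 4.21% of all features. Krt10, the keratin of the suprabasal layers, was at 5.74, 3.96 and 4.51 in the controls and 6.38, 5.02 and 6.52 at 72 h. Strain levels differed more than the change, so the groups overlapped, and the paired difference was 1.24 ± 0.32 or 2.36-fold (limma, adjusted p = 0.644). Lor, loricrin, the main protein of the cornified envelope, was at 5.77, 4.30 and 4.86 against 6.45, 5.36 and 6.53, or 2.2-fold (1.14 ± 0.29, limma, adjusted p = 0.644).

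The Krt10 and Lor values ran together by strain, at changes of 0.64 and 0.68 in the A/J pair, 1.06 and 1.06 in the C57BL/6J pair and 2.01 and 1.67 in the C3H/HeMs pair. Both were near control at 12 h, 0.19 and 0.20, and both were lower in each lung pool at 72 h than in its control. With the muscle mean as a covariate they were 0.87 and 0.81, and with the hair mean 1.18 and 1.11. Alox12b, a lipoxygenase of the barrier lipid pathway, went from 1.55, 0.92 and 1.60 to 2.37, 2.18 and 2.21 without overlap. Its mean change was 0.89 at 72 h, after 1.22 at 1 h and 1.11 at 12 h. Klk7, a shedding protease, differed by 0.65 ± 0.34. Elovl4, an elongase of very long fatty acids, was at the upper limit of the deposited values on 8 skin arrays, so its change is bounded by that limit. The basal keratinocyte list showed no common shift; Itgb4, the integrin of hemidesmosomes, had changes of 1.34, 1.60 and -0.05, the last being 0.21 with the position trend removed.

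Of 49 hair genes 11 were measured, with a median of -0.93 (-1.94, -0.96 and -0.50), which became -0.61 when features at the limit of the values were left out, -0.47 when the C57BL/6J control was left out and -1.58 when the C3H/HeMs control was. In every strain 5 were lower (45.5%, against 15.4% of all features) and 0 higher (against 14.6%). Of the 11, 2 (18.2%) were fully below control, against 5.93% of all features. Shaft genes lay on opposite sides of control in different strains. Krt33b had changes of -6.39, -4.82 and 3.44, Krtap14, a keratin-associated protein, of -6.38, -5.04 and 3.94, and Foxn1, the regulator of shaft keratins, of -2.17, -2.54 and 1.92. Krtap14 was at the limit of the values on 3 skin arrays. Lef1, a transcription factor of Wnt signalling in the hair matrix, was lower in all 3 strains, from 1.13, 0.63 and -0.31 to -0.81, -0.33 and -0.96 (-1.18 ± 0.49, limma, adjusted p = 0.662). Krt17, a follicle and wound keratin, differed by -0.61 ± 0.30. Crym and Krt71 were thus lower also in C3H/HeMs, the strain whose shaft genes were higher at 72 h. Krt33b, Krtap14 and Foxn1 were named after their values were seen.

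MHC class II genes, which present peptides on antigen-presenting cells, were below control. Of 12 genes 8 were measured, with a median of -0.94 (-0.29, -0.38 and -1.54). In every strain 6 of the 8 were lower, against 15.4% of all features, and 0 higher, against 14.6%. For 3 (37.5%) every 72 h pool was below every control, against 5.93% of all features. H2-Eb1, a class II beta chain, was at 0.77, 0.56 and 2.16 in the controls and 0.03, -0.05 and 0.14 at 72 h, 2.17-fold lower (-1.12 ± 0.31, limma, adjusted p = 0.644). H2-Aa, an alpha chain, went from 0.53, -0.25 and 1.57 to -0.81, -0.63 and -0.16. Cd74, the invariant chain, went from 0.01, -0.80 and 1.55 to -1.60, -1.23 and -0.21, and H2-DMa, which loads peptides, differed by -1.11 ± 0.42. The C3H/HeMs control was the highest of the 6 pools for all 4, its own muscle content was also the highest, and without it the list median was -0.58. The values at 72 h were alike in the 3 strains, with list means of -0.53, -0.52 and -0.61. With the muscle mean as a covariate H2-Eb1 was at -0.95 and Cd74 at -1.08. Lists of other cells that carry class II had medians of 0.07 for 10 Langerhans and dendritic cell genes and -0.19 for 14 B cell genes. In lung at 72 h the class II median was -0.55 (-1.02, -0.54 and -0.36).

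Of 18 measured macrophage and monocyte genes, 5 (27.8%) were fully above control, against 4.21% of all features, with a list median of 0.17 (0.22, 0.54 and -0.09). In every strain 6 were higher (33.3%, against 14.6% of all features) and 1 lower (5.56%, against 15.4%). The other 11 were mixed between strains, and the macrophage genes named next are among the 6. Cd163, a scavenger receptor, was at 1.49, 1.21 and 1.61 in the controls and 1.75, 2.35 and 2.97 at 72 h (0.92 ± 0.36, limma, adjusted p = 0.662). Itgam, the integrin CD11b, went from 0.41, 0.08 and -0.06 to 0.74, 1.23 and 1.46, and Cd68 from 1.02, 0.72 and 1.40 to 1.48, 1.51 and 2.13. The A/J pool at 72 h was the lowest of the 3 for each of them. The list median turned on single pools. It was 0.57 without the C3H/HeMs control and 0.27 without the A/J pool at 72 h, but 0.052 without the A/J control, 0.038 without the C3H/HeMs pool at 72 h and -0.086 without the C57BL/6J control. Of 6 mast cell genes 5 were higher in every strain (83.3%, against 14.6% of all features), with a median of 0.53, or 0.29 under quantile normalization. The mast cell median was 0.52 at 1 h and -0.11 at 12 h against the same controls, so the shift was not particular to 72 h. Mcpt2, a mast cell protease, went from 3.26, 2.72 and 2.94 to 3.94, 3.46 and 3.49 without overlap (0.66 ± 0.25, limma, adjusted p = 0.662), and Cma1, chymase, had changes of 0.66, 1.23 and 0.18, the last being -0.02 with the position trend removed.

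The inflammation list was nearer to control at 72 h than at 12 h. Its 29 measured genes had a median of 0.49 at 1 h, 0.99 at 12 h and 0.28 at 72 h, and at 72 h 6 were higher in every strain (20.7%, against 14.6% of all features) and 3 lower (10.3%, against 15.4%), shares near those of all features. Without the A/J pool at 72 h the last median was 0.074. Il1b, the cytokine interleukin-1 beta, was below control in each strain, from 0.85, 0.70 and 2.16 to 0.21, 0.22 and 1.01, after changes of 1.79 at 1 h and 1.72 at 12 h. The difference between 72 h and 12 h was -2.47 (limma, adjusted p = 0.195). Nfkbia, the inhibitor of NF-kappa-B, had changes of -0.08, -0.95 and -1.49, the first being 0.03 with the position trend removed. Ccl8, a monocyte chemokine, was above control like Il18, at 3.68, 2.95 and 3.39 in the controls and 4.27, 3.93 and 4.94 at 72 h (1.04 ± 0.47, limma, adjusted p = 0.662).

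Matrix and fibrosis genes had a median of 0.24 over 30 measured members. In every strain 8 were higher (26.7%, against 14.6% of all features) and 2 lower (6.67%, against 15.4%). Fully above control were 4 (13.3%), against 4.21% of all features. Without the C57BL/6J control the median was 0.095. Mmp2, gelatinase A, went from 2.21, 2.13 and 2.97 to 3.22, 3.70 and 3.13 (0.92 ± 0.25, limma, adjusted p = 0.644), and the C3H/HeMs pair differed least. Timp1, an inhibitor of such proteases, went from -1.16, -0.99 and -0.56 to -0.30, 0.65 and 0.20 (1.08 ± 0.43, limma, adjusted p = 0.662), after a change of 2.26 at 12 h. Lum, the proteoglycan lumican, differed by 0.96 ± 0.39 and Eln, elastin, by 0.47 ± 0.20. Heat shock genes had a median of -0.28 over 16. Of the 16, 8 were lower in every strain, against 15.4% of all features, and 0 higher, against 14.6%. Fully below control were 3 (18.8%), against 5.93% of all features. Hsph1, a co-chaperone of Hsp70, was at -0.69 ± 0.20, and Hspa5, the chaperone of the endoplasmic reticulum, at -0.59 ± 0.21.

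The 27 skeletal muscle genes are those whose mean was taken above as muscle content, so they are no separate evidence on it. Their median change was -0.77, made of 0.22, -0.29 and -2.0 in the strains. It was -0.18 without the C3H/HeMs control and -0.34 without the C3H/HeMs pool at 72 h. Of 27 genes 7 were lower in every strain (25.9%, against 15.4% of all features) and 1 higher (3.7%, against 14.6%). Eno3, the muscle enolase, went from -2.23, -0.71 and 1.00 to -1.97, -1.65 and -2.24, and Ckmt2, the mitochondrial creatine kinase, differed by -1.0 ± 0.36. Actn3, the alpha-actinin of fast fibres, was the member higher in every strain, from 3.85, 3.36 and 3.03 to 4.42, 4.44 and 3.67. Medians of the other 22 lists, among them DNA repair, interferon response, T and NK cells and circadian clock, lay between -0.37 for the red cell list and 0.65 for the melanocyte list, of which 3 genes were measured.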

How the data were processed

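Each sample was a pool of total RNA from 3 mice, hybridised on a 2-colour oligonucleotide array beside a reference mixture from 10 organs, per the labels' protocols. The authors deposited 1 log10 ratio per probe, skin over reference, and the submitters' processing notes name Agilent Feature Extraction; its version and its background and dye settings are not given in the sources used here. The deposited log10 ratios stop at ±2 (6.64 on the log2 scale), where 15 to 42 probes of a skin array lay, and the deposited values keep no spot intensity, so signal over background is unknown and precision rests on how many arrays there were.

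Ratios were multiplied by 3.32 to give log2, each array was centred on its median, and probes of 1 symbol were averaged, which left 8750 features from 9275 probes. Of the probes, 6433 had 1 symbol, 381 several and 2461 none; those without a single symbol stayed unnamed. limma 3.58.1 in R 4.3.3 fitted time with strain as a block (12 skin arrays, 6 residual degrees of freedom), the strain block being the design's pairing; control and 72 h deviations of a strain correlated at 0.12 in the A/J pair, 0.25 in the C57BL/6J pair and -0.03 in the C3H/HeMs pair. Adjusted p-values are Benjamini-Hochberg over all features, and the threshold was 0.05. The alternative with all 24 arrays had 12 residual degrees of freedom. The script was tested on simulated data. Alternatives were no centring, quantile normalization, single probes, no block, other array sets, covariates for muscle and hair, and each replicate left out; removal of a trend along the probe numbers, features with a symbol only, and the refits of the 24-array fit without single pools were chosen after seeing the data.

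The rule for names took the 10 genes per direction with the smallest p, those changed 2-fold in all strains, up to 6 members of each of 34 lists by p, and Cdkn1a, Ccng1, Trp53inp1, Mdm2, Ephx1, Exoc4 and Ctsf; a clone identifier was passed over. It gave 210 genes. The text names 83 genes, 12 of them outside the rule, and describes 12 of the lists by their members, a choice made after their values were seen. Ei24, Gadd45a, Igfbp3, Ttk and Ccnd1, as well as the genes so marked in the results, were named after their values were seen. The samples and lists were chosen with earlier results of these data known. Promoters and gene names came from RefSeq tables.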

Additional observations from a re-analysis of the deposited data

Results flagged for a closer look

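Of the 83 genes named in the text, 9 had a pattern in which all 3 skin pools changed one way at 72 h and all 3 lung pools the other way. The difference of the 2 changes was tested in the 24-array fit, and limma passed none of them. Skin received 30 Gy and lung 10 Gy, so tissue and dose cannot be told apart. Values below are the skin change minus the lung change on the log2 scale.

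Of these 9 genes Krt10, an epidermal gene, had the largest difference. It differed by 3.21 (adjusted p = 0.245), with skin changes of 0.64, 1.06 and 2.01 and lung changes of -2.75, -0.49 and -2.67. Lor differed by 2.33 (adjusted p = 0.36), its lung changes being -2.40, -0.19 and -0.99. Crym differed by -2.63 (adjusted p = 0.245), with lung changes of 0.18, 0.38 and 0.90, and Lef1 by -1.52 (adjusted p = 0.363).

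Among the other lists, Il1b differed by -1.76 (adjusted p = 0.36) with lung changes of 1.28, 1.00 and 0.74, so it was above control in lung where it was below control in skin. Smc4 differed by -1.36 (adjusted p = 0.36), Ckmt2 by -1.31 (adjusted p = 0.36), Cma1 by 1.08 (adjusted p = 0.372) and Hspa5 by -0.85 (adjusted p = 0.36).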

How the results depend on the processing

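The counts of passing features depended on the arrays in the fit. With all 24 arrays limma passed 16 features, 14 higher and 2 lower; with the position trend removed as well it passed 28, 24 higher and 4 lower, of which 12 were shared with the 16. At an unadjusted p under 0.05 there were 649, 346 and 303. Without single samples the count of the 12-array fit was 0 to 1 (higher 0 to 1), and the 1 was an unnamed probe that passed without the A/J pool at 72 h (3.08 ± 0.32, limma, adjusted p = 0.0425). Labels give each strain 1 number in all groups, and the fit without this replicate block also passed 0 (smallest adjusted p 0.595).

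The 16 features 2-fold higher in all strains became 88 at 1.5-fold, 7 with the position trend removed and 6 among features with a symbol. The 7 lower became 46 at 1.5-fold, 3 without centring and 5 with the position trend removed. When a strain was left out, only the remaining strains had to change 2-fold, so the counts could not fall. They were then 28 to 155 higher and 18 to 46 lower.

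Alternatives were run for the medians of 12 of the 34 lists, with no covariate fit among them. These 12 medians kept their direction under the alternatives run, except that of macrophages and monocytes. Leaving out samples moved p53 targets to values from 0.46 to 0.67, mitosis to values from -0.86 to -0.43, DNA replication to values from -0.46 to -0.16, inflammation to values from 0.074 to 0.38, macrophages and monocytes to values from -0.086 to 0.57, and heat shock to values from -0.42 to -0.23. DNA replication was -0.32 without centring and -0.42 with quantile normalization, heat shock -0.20 with the position trend removed, mast cells 0.29 with quantile normalization, and the hair list -0.61 with features at the limit left out. With the hair mean as a covariate Krt33b (0.81), Krtap14 (1.08) and Foxn1 (0.44) changed sign, and that mean contains these genes, as it does Crym and Krt71; Igfbp3 ran from -1.19 to 0.037 when a sample or strain was left out. The cause of the other moves was not tested.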
